A study of Mus musculus with 2 samples.

Results

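The SLC25 mitochondrial carriers of adult mouse heart were defined as all protein-coding genes whose GENCODE M21 symbol begins with Slc25a, matched by gene identifier, with 1 gene of that prefix left out, and 46 of the 43346 genes in the tables were described. Shares, ranks and counts of the family below are over these 46. The samples were hearts of inbred C57BL/6J mice aged 8 weeks, from which poly(A)-selected RNA was sequenced in 1 group of 2 libraries that the labels call biological replicates. The labels name no treatment and no engineered allele, describe each library as pooled male and female tissue, and list paired, strand-specific reads. A single group allows no comparison of conditions, so carriers are described by their levels, by their ratios to each other inside a library, and by how the libraries differ.

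Carriers of this family sit mostly in the inner mitochondrial membrane and exchange nucleotides, phosphate, organic acids, amino acids and cofactors between the mitochondrial matrix and the cytosol. The adenine nucleotide carriers export ATP made in the matrix in return for ADP, and the phosphate carrier brings in the phosphate that ATP synthase uses. In heart muscle, which makes nearly all of its ATP in mitochondria, these steps and the malate-aspartate shuttle, which moves reducing equivalents from cytosolic NADH into the matrix, carry much of the exchange.

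The libraries were of similar depth, at 62912053 estimated counts in replicate 2 and 57464573 in replicate 1, with 98.3% of either on genes. The labels on sex did not match the sex-linked transcripts, since replicate 2 had 13 counts and replicate 1 had 13725 counts of Xist, the RNA of X chromosome silencing in females, and the 4 Y-linked genes examined were all at 0 counts in replicate 1. All 8 cardiomyocyte markers were present, with a summed level of 38107 TPM in replicate 2 and 32881 TPM in replicate 1, and none was called different between the libraries. They did not move together. Scaled to library size, their log2 ratios of replicate 2 over replicate 1 ran between -0.72 for Ryr2 and 0.95 for Tnni3. Tnni3 had 11030 TPM in replicate 2 and 4631 TPM in replicate 1, whereas Actc1 had 13049 and 14525 TPM. Other tissues differed. The 7 erythroid markers summed to 94907 TPM in replicate 2 and 7592 TPM in replicate 1, the 6 lung epithelium markers to 2159 and 0.32 TPM, the 7 adipocyte markers to 492 and 304 TPM, and the 4 liver markers to 1.04 and 12.5 TPM. TPM divides counts by transcript length and scales each library to the same sum. Genes of the mitochondrial genome took 30.6% of TPM in replicate 2 and 46.5% in replicate 1, so the TPM left for nuclear genes differed between the libraries. Each library's level is given, with means ± SD (n = 2) where stated. For 2 values the smallest p of an exact sign test is 0.5, so no ratio of carriers carries a p. In tissue RNA, fewer cells of a type and less RNA per cell cannot be told apart.

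The sequences that set the closest relatives apart are shown first, since both main comparisons rest on reads that tell these copies from each other. The first set holds the alternative exons 3A and 3B of Slc25a3, the phosphate carrier, which encode alternative versions of the same stretch of the protein. Exon 3A lies at chr10:91122207-91122331 and exon 3B at chr10:91121922-91122043 (both minus strand, GRCm38, from GENCODE M21). Capitals mark bases that differ between the exons or have no partner in the alignment.
Slc25a3 exon 3A: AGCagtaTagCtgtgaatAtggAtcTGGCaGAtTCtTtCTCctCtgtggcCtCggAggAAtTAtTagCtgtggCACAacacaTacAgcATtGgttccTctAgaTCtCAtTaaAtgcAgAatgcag
Slc25a3 exon 3B: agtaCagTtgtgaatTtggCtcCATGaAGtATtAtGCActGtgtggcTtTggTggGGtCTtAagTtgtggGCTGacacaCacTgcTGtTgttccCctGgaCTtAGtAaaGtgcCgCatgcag
The exons are 125 and 122 bases long. They share 77 of 122 aligned bases (63.1%) and differ at 45, so reads that cross them can be assigned to one or the other.

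The second set holds 60 coding bases of each adenine nucleotide carrier around its signature, a run of arginine codons followed by methionine codons that is known to mark this group of carriers. Capitals mark the signature codons. Each window crosses an intron, so the genomic positions span more than 60 bases: chr8:46207619-46208455 for Slc25a4 (minus strand), chrX:36797819-36798388 for Slc25a5 (plus strand) and chr3:40722710-40724885 for Slc25a31 (plus strand, all GRCm38).
Slc25a4: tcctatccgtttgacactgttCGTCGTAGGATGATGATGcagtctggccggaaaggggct
Slc25a5: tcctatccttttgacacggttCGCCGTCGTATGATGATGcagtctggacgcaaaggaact
Slc25a31: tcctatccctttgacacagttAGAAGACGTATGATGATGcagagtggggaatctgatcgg
In this window Slc25a4 and Slc25a5 differ at 9 bases, Slc25a4 and Slc25a31 at 22, and Slc25a5 and Slc25a31 at 20. Over the aligned coding sequence, identity was 77.4% between Slc25a4 and Slc25a5, and 66.9% between Slc25a31 and either of them. The longest run shared by their transcripts was 20 bases for Slc25a4 and Slc25a5, 14 for Slc25a4 and Slc25a31, and 21 for Slc25a5 and Slc25a31. The posterior SD of the count, a measure of how much the division of shared reads could vary, reached 6.42 counts at most over all carriers in either library, and was 2.95 counts in replicate 2 and 2.62 in replicate 1 for Slc25a5.

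As a family, the carriers summed to 4751 TPM in replicate 2 and 3649 TPM in replicate 1, or 0.420 ± 0.0780% of all TPM. Over nuclear genes alone the share was 0.703% in replicate 2 and 0.705% in replicate 1. That nuclear total includes the 7 erythroid markers, whose sum was far larger in replicate 2 (94907 TPM) than in replicate 1 (7592 TPM). The share without these markers was not computed, so the near match does not show a stable family level. Of the 46 carriers, 5 had a mean TPM of at least 100, 15 lay between 10 and 100, 16 between 1 and 10, and 10 under 1. A mean TPM of at least 1 was reached by 78.3% of the carriers, beside 52.0% of the 21474 protein-coding genes, and a mean of at least 100 by 10.9% beside 2.54%. The median carrier stood at 9.33 TPM, and the median protein-coding gene at 1.23 TPM. The family was top-heavy. Slc25a4 and Slc25a3 alone held 71.0% of the carriers' TPM in replicate 2 and 68.9% in replicate 1, and the 10 highest members held 93.4% and 93.6%. The order of levels was much the same in both libraries (Spearman rho 0.973 across the 46 carriers, a description over genes that share 2 libraries). The ranges of neighbours did not overlap at the first 7 steps, from Slc25a4 through Slc25a3, Slc25a11, Slc25a5, Slc25a39, Slc25a34 and Slc25a12 to Slc25a42. Further down most neighbours could not be ordered, and 32 of all 45 neighbouring pairs overlapped between the libraries.

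**Figure D1:**
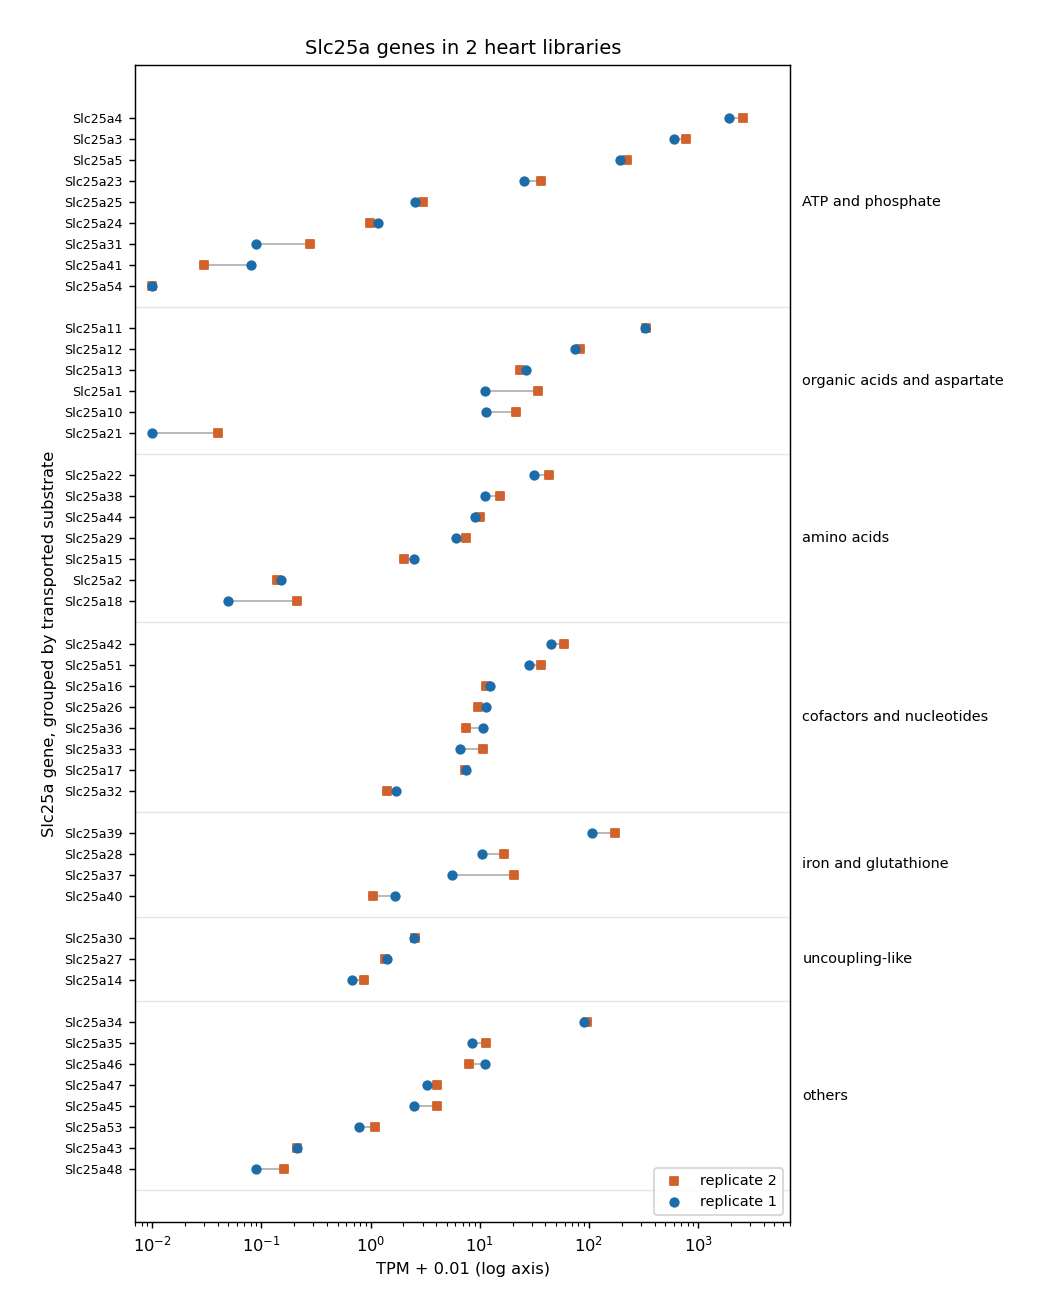
Level of each of 45 Slc25a genes in replicate 2 (squares) and replicate 1 (circles), as TPM + 0.01 on a log axis, with genes grouped by the substrate they are known to carry and ordered by mean within a group. Slc25a4, Slc25a3 and Slc25a5 of the top group and Slc25a11 of the second stand above 100 TPM in both libraries, as does Slc25a39, and the widest gaps between libraries among genes above 1 TPM are those of Slc25a37 and Slc25a1.

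Carriers of ATP and phosphate were the most abundant group and held 76.6% of the carriers' TPM in replicate 2 and 74.9% in replicate 1. Slc25a4 (ENSMUSG00000031633.4, chromosome 8), the adenine nucleotide carrier known to prevail in heart and skeletal muscle, had 2601 TPM in replicate 2 and 1914 TPM in replicate 1, from 237295 and 181895 counts. It averaged 2258 ± 486 TPM and ranked 29 among protein-coding genes in replicate 2 and 28 in replicate 1. Slc25a5 (ENSMUSG00000016319.3, chromosome X), the adenine nucleotide carrier found in most tissues, had 225 TPM in replicate 2 and 192 TPM in replicate 1, from 15244 and 12308 counts. Slc25a31 (ENSMUSG00000069041.6, chromosome 3), the form known from male germ cells, had 25 counts in replicate 2 and 7 in replicate 1, or 0.27 and 0.08 TPM. Slc25a4 stood well above both relatives in both libraries, and Slc25a31 was near the limit of detection.

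Within each library the ratio of Slc25a4 to Slc25a5 was 11.5-fold in replicate 2 and 9.96-fold in replicate 1, a mean log2 ratio of 3.42 ± 0.15. For Slc25a4 over Slc25a31 the mean log2 ratio was 13.78 ± 0.84, and for Slc25a5 over Slc25a31 it was 10.36 ± 1.00, both resting on the few counts of Slc25a31. Among the germ cell markers, Prm1 had 45 counts in replicate 2 and 30 in replicate 1, Prm2 had 84 and 45, Tnp1 9 and 12, Ldhc 43 and 57, and Pgk2 7 and 9. These markers were present at low levels in both libraries, and their part in the reads of Slc25a31 was not tested.

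The total of Slc25a4 joins 2 annotated transcripts that behaved differently. The coding transcript, of 1925 bases, had 140906 counts in replicate 2 and 143016 in replicate 1. The other, of 1275 bases, is annotated as a retained intron. It lacks the last exon and runs from exon 3 into the following intron, and it had 96389 counts in replicate 2 and 38879 in replicate 1. Its share of the gene's TPM was 52.3% in replicate 2 and 30.4% in replicate 1, so the leading transcript by TPM differed between the libraries, while the coding transcript led in both by counts. The posterior SD was 492 counts in replicate 2 and 467 in replicate 1 for the retained-intron transcript. From the coding transcripts alone, a choice made after seeing the data, Slc25a4 stood at 1241 TPM against 215 TPM for Slc25a5 in replicate 2, and at 1332 TPM against 186 TPM in replicate 1. That gives 5.77-fold and 7.16-fold, a mean log2 ratio of 2.68 instead of 3.42. The direction was the same with and without the retained intron, but its size changed by more than the spread between libraries.

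Slc25a3 (ENSMUSG00000061904.8, chromosome 10) had 773 TPM in replicate 2 and 598 TPM in replicate 1, the second highest level of the family. The transcript with exon 3A, the form known from heart and skeletal muscle, held 699 TPM in replicate 2 and 539 TPM in replicate 1. The transcripts with exon 3B, the form found in most tissues, held 44.0 TPM in replicate 2 and 20.1 TPM in replicate 1. Exon 3A thus accounted for 90.4% of the gene's TPM in replicate 2 and 90.1% in replicate 1, and exon 3B for 5.69% and 3.36%. The ratio of 3A to 3B was 15.9-fold in replicate 2 and 26.8-fold in replicate 1, above 1 in both but with different sizes. Of the rest, a transcript annotated for nonsense-mediated decay, in which exon 3A extends to 224 bases, held 1.94% in replicate 2 and 2.80% in replicate 1, and 4 other transcripts, none with exon 3A or 3B in its annotated bounds, held 2.00% and 3.73%.

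**Figure D2:**
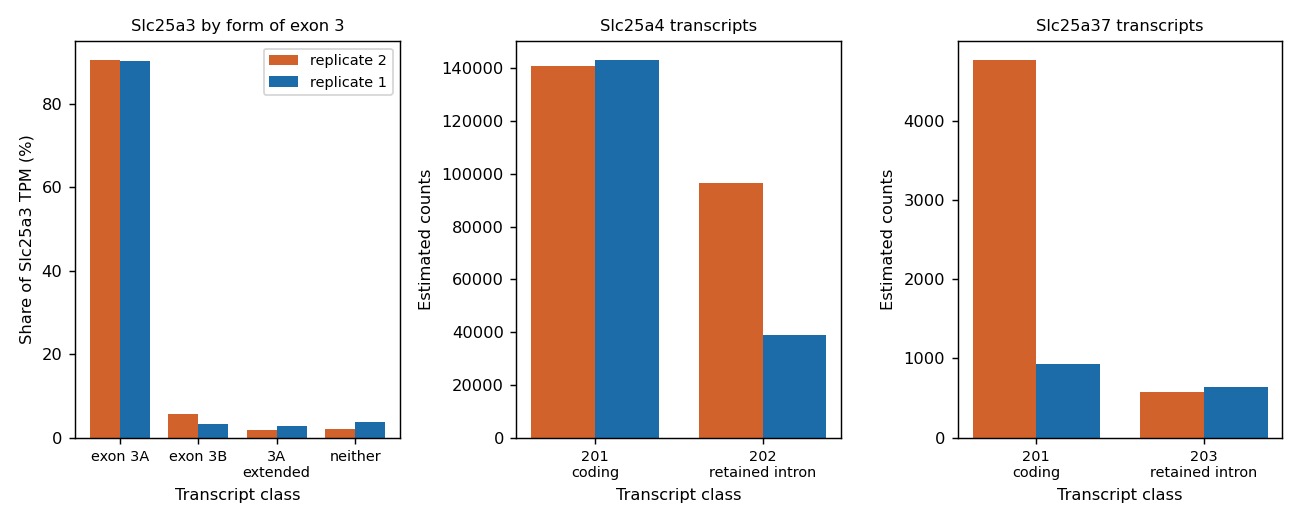
Transcript classes of 3 carriers, with replicate 2 on the left and replicate 1 on the right of each pair of bars. The left panel gives the percent of Slc25a3 TPM by the form of exon 3, about 90% with exon 3A in both libraries, and the other panels give estimated counts of the coding and the retained-intron transcripts of Slc25a4 and Slc25a37, where the intron form of Slc25a4 and the coding form of Slc25a37 are the ones higher in replicate 2.

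The ATP-Mg/phosphate carriers, which exchange ATP-Mg for phosphate and thereby change the size of the adenine nucleotide pool in the matrix, were led by Slc25a23 with 36.1 TPM in replicate 2 and 25.3 TPM in replicate 1. Slc25a25 averaged 2.77 ± 0.325 TPM, and Slc25a24 had 0.98 TPM in replicate 2 and 1.15 TPM in replicate 1. Slc25a23 exceeded Slc25a25 by a mean log2 ratio of 3.45 ± 0.19 and Slc25a24 by 4.82 ± 0.52. Slc25a41 had 1 count in replicate 2 and 4 in replicate 1, too few for a fold. Slc25a54 had 0 counts in both libraries, which allows up to 0.0468 CPM, a count scaled to library size, in replicate 2 and 0.0550 CPM in replicate 1.

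Carriers of organic acids and aspartate held 10.4% of the carriers' TPM in replicate 2 and 12.3% in replicate 1, and most of that was Slc25a11, the oxoglutarate carrier of the malate-aspartate shuttle. Slc25a11 had 335 TPM in replicate 2 and 326 TPM in replicate 1, by TPM the smallest relative spread of the 5 highest carriers. This did not hold for counts scaled to library size. There its log2 ratio of replicate 2 over replicate 1 was -0.11, larger in size than the 0.08 of Slc25a5. The dicarboxylate carrier Slc25a10, which exchanges malate or succinate for phosphate, had 21.7 TPM in replicate 2 and 11.4 TPM in replicate 1, and Slc25a11 exceeded it by a mean log2 ratio of 4.39 ± 0.63. The other carrier step of the shuttle, the exchange of aspartate for glutamate, was shared between paralogs. Slc25a12, known as aralar, had 82.0 TPM in replicate 2 and 74.3 TPM in replicate 1. Slc25a13, known as citrin and prevalent in liver, had 23.5 TPM in replicate 2 and 26.7 TPM in replicate 1. Over all annotated transcripts Slc25a12 was higher by 3.49-fold in replicate 2 and 2.78-fold in replicate 1, a mean log2 ratio of 1.64 ± 0.23, but the order turned round when coding transcripts alone were counted.

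Most Slc25a12 reads were not assigned to its annotated coding transcript. A transcript of 2392 bases annotated for nonsense-mediated decay made up 56.5% of its TPM in replicate 2 and 68.9% in replicate 1, and the coding transcript, of 6351 bases, 11.3% and 15.6%. By counts they had 6688 and 3757 in replicate 2, and 6986 and 4435 in replicate 1. Another transcript, of 994 bases and annotated as a processed transcript, made up 31.1% of the gene's TPM in replicate 2 and 14.4% in replicate 1. From coding transcripts alone, Slc25a12 stood at 9.29 TPM against 23.5 TPM for Slc25a13 in replicate 2, and at 11.6 TPM against 26.7 TPM in replicate 1. That gives a mean log2 ratio of -1.27 ± 0.09, so which of these paralogs was higher depended on the transcripts counted. The rest of this group was low or uneven. Slc25a1, the citrate carrier, which exports citrate for lipid synthesis, had 34.4 TPM in replicate 2 and 11.2 TPM in replicate 1. Slc25a21, which carries oxodicarboxylates of lysine breakdown, had 4 counts in replicate 2 and 0 in replicate 1.

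The malate dehydrogenases of the shuttle stood above Slc25a11 in both libraries and Got1 below it, while Got2 was above it in replicate 2 and below it in replicate 1. Mdh2, the matrix malate dehydrogenase, had 1268 TPM in replicate 2 and 919 TPM in replicate 1, and the cytosolic Mdh1 had 787 and 998 TPM. Of the aspartate aminotransferases, Got2, of the matrix, had 387 TPM in replicate 2 and 292 TPM in replicate 1, and Got1, of the cytosol, had 304 and 261 TPM. The pyruvate carrier subunits, which belong to another family, had 343 TPM in replicate 2 and 323 TPM in replicate 1 for Mpc1, and 134 and 110 TPM for Mpc2. Ckmt2, the mitochondrial creatine kinase that takes up exported ATP, had 1266 TPM in replicate 2 and 1193 TPM in replicate 1. Slc25a4 was above each of these genes in both libraries by its total. Its coding transcript alone, at 1241 TPM, was slightly below the totals of Mdh2 and Ckmt2 in replicate 2. These are unlike measures, since the totals of Mdh2 and Ckmt2 cover all their transcripts. In the outer membrane, Vdac1 had 224 TPM in replicate 2 and 249 TPM in replicate 1, Vdac2 had 121 and 123 TPM, and Vdac3 had 63.2 and 87.8 TPM. Ppif, the matrix cyclophilin that regulates the permeability transition, had 258 TPM in replicate 2 and 185 TPM in replicate 1.

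Amino acid carriers held 1.65% of the carriers' TPM in each library. Slc25a22, a glutamate carrier, had 42.9 TPM in replicate 2 and 31.1 TPM in replicate 1, whereas its paralog Slc25a18 had 15 counts in replicate 2 and 3 in replicate 1. Slc25a15, an ornithine carrier of the urea cycle in liver, had 2.01 TPM in replicate 2 and 2.48 TPM in replicate 1, and its paralog Slc25a2 had 10 counts in each library, a mean log2 ratio of 3.95 ± 0.14. That ratio rests on the few counts of Slc25a2, whose counting error the SD does not show. It was 1.51 with 1 added to each TPM, and 5.53 from counts without division by length. The glycine carrier Slc25a38, which serves heme synthesis, had 15.4 TPM in replicate 2 and 11.2 TPM in replicate 1. Slc25a44, known to carry branched-chain amino acids, had 10.1 TPM in replicate 2 and 9.04 TPM in replicate 1, and Slc25a29, which carries basic amino acids, had 7.53 and 6.04 TPM.

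Cofactor and nucleotide carriers were expressed throughout, and all 9 reached 1 TPM in both libraries. Slc25a42, which carries coenzyme A, had 58.7 TPM in replicate 2 and 44.6 TPM in replicate 1, above Slc25a16, also linked to coenzyme A, at 11.5 and 12.5 TPM (mean log2 ratio 2.09 ± 0.37). The NAD carrier Slc25a51 had 36.5 TPM in replicate 2 and 28.4 TPM in replicate 1, against 1.08 and 0.78 TPM for its relative Slc25a53, a mean log2 ratio of 5.12 ± 0.07. The size of this ratio depended on the measure. It was 7.10 ± 0.76 from coding transcripts alone and 3.84 ± 0.30 from the deposited posterior mean TPM. For the pyrimidine nucleotide carriers no order held. Slc25a36 stood at 7.46 TPM against 10.8 TPM for Slc25a33 in replicate 2, and at 10.8 TPM against 6.65 TPM in replicate 1, so the mean log2 ratio of 0.08 ± 0.87 lay within its spread. Slc25a26, the S-adenosylmethionine carrier, Slc25a17, a carrier of peroxisomes, and Slc25a32, linked to folate and FAD, had means of 10.5 ± 1.36, 7.33 ± 0.113 and 1.56 ± 0.198 TPM.

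Iron and glutathione carriers held 4.46% of the carriers' TPM in replicate 2 and 3.41% in replicate 1. Slc25a39, which brings glutathione into mitochondria, had 174 TPM in replicate 2 and 107 TPM in replicate 1, far above its paralog Slc25a40 at 1.05 and 1.66 TPM (mean log2 ratio 6.68 ± 0.96). The mitoferrins import iron for heme and iron-sulfur clusters. Slc25a28, mitoferrin 2, of many tissues, had 16.6 TPM in replicate 2 and 10.5 TPM in replicate 1. Slc25a37, mitoferrin 1, known from red cell precursors, had 20.6 TPM in replicate 2 and 5.60 TPM in replicate 1. Slc25a28 was thus below Slc25a37 in replicate 2 and above it in replicate 1, and the mean log2 ratio of 0.29 ± 0.86 lay within its spread.

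Relatives of the uncoupling proteins were low under the Slc25a symbols, at 0.101% of the carriers' TPM in replicate 2 and 0.125% in replicate 1. Slc25a30 had 2.57 TPM in replicate 2 and 2.50 TPM in replicate 1, Slc25a27 had 1.35 and 1.41 TPM, and Slc25a14 had 0.87 and 0.66 TPM. Slc25a14 lay below Slc25a30 by a mean log2 ratio of -1.73 ± 0.25 and below Slc25a27 by -0.86 ± 0.32. The uncoupling proteins themselves, which are family members under other symbols, stood higher. Ucp1, of brown fat, had 124 TPM in replicate 2 and 50.4 TPM in replicate 1, Ucp2 had 91.7 and 28.6 TPM, and Ucp3, of muscle, had 20.7 and 13.6 TPM. Mtch1 and Mtch2, outer membrane relatives of the carriers, had 111 and 72.2 TPM in replicate 2 and 80.4 and 91.3 TPM in replicate 1.

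Among carriers grouped as others, Slc25a34 led with 97.0 TPM in replicate 2 and 90.1 TPM in replicate 1, the sixth place in the family, and exceeded its relative Slc25a35 (11.5 and 8.47 TPM) by a mean log2 ratio of 3.24 ± 0.24. Slc25a46, an outer membrane protein linked to mitochondrial fusion and lipid transfer, had 7.92 TPM in replicate 2 and 11.1 TPM in replicate 1. Slc25a47 and Slc25a45 had means of 3.67 ± 0.516 and 3.28 ± 1.14 TPM. Slc25a43 had 13 counts in each library, and Slc25a48 had 31 in replicate 2 and 16 in replicate 1.

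Over 18 pairs of related carriers, the gene named first was higher in both libraries in 14, the second in 2, and the order was mixed in 2. Which gene was named first was a choice with no meaning beyond the sign, and some genes, such as Slc25a23, recur in several pairs. The counts of pairs therefore only summarize the signs of these ratios. From coding transcripts alone the first was higher in both libraries in 13, since Slc25a12 over Slc25a13 changed direction. The unclear pairs were the mitoferrins and the pyrimidine nucleotide carriers. Among the 20 carriers with a mean TPM of at least 10, 17 had more than 1 annotated transcript, and the same transcript led in both libraries for 15 of them by TPM and for 17 by counts. The lead was over 90% on average for 5, among them Slc25a1, Slc25a11 and Slc25a5. TPM and counts need not name the same transcript. In both libraries Slc25a51 was led by a transcript of 1005 bases by TPM and by one of 4433 bases by counts. The longer transcript had 3737 counts in replicate 2 and 2143 in replicate 1, with a posterior SD of 919 and 663.

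**Figure D3:**
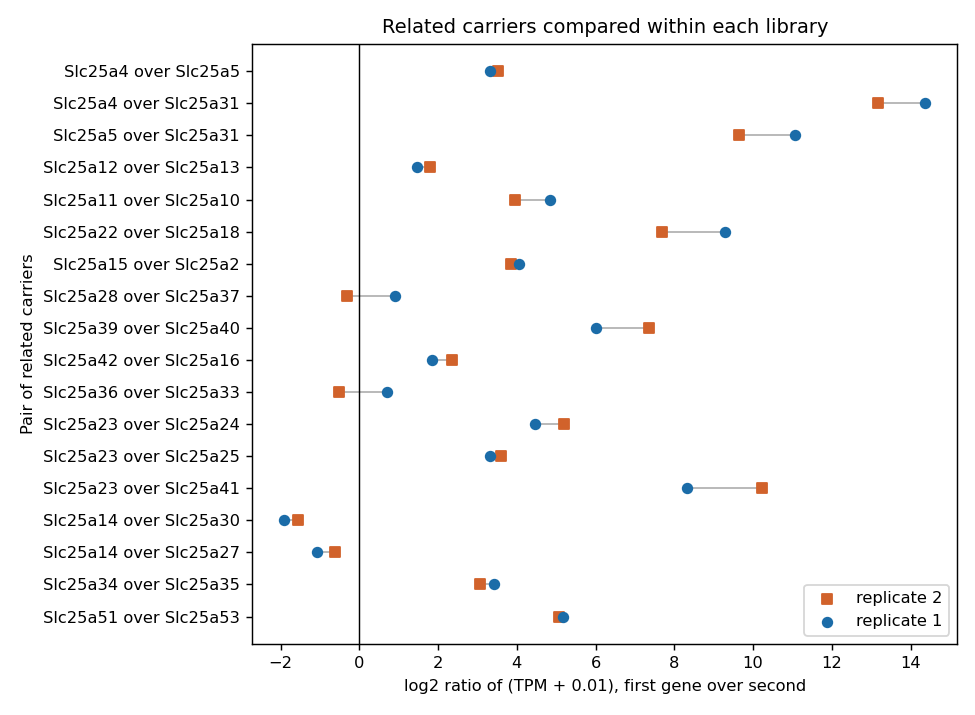
log2 ratio of TPM, with 0.01 added to each, for 18 pairs of related carriers, the first named gene over the second, in replicate 2 (squares) and replicate 1 (circles). Slc25a28 over Slc25a37 and Slc25a36 over Slc25a33 fall on both sides of 0, Slc25a14 lies below Slc25a30 and Slc25a27, and the other 14 pairs lie above 0 in both libraries.

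Between the libraries, mitoferrin 1, the citrate carrier and the germ cell adenine nucleotide carrier were called higher in replicate 2, and no carrier was called lower. The call of the germ cell carrier, Slc25a31, rests on 25 counts in replicate 2 and 7 in replicate 1. A gene was called when a two-sided exact binomial test of its counts, given library sizes scaled by the TMM method, passed Benjamini-Hochberg adjustment at 0.05 over all genes with at least 20 counts and the fold was at least 2. Of the 46 carriers 42 could be tested, leaving out Slc25a18, Slc25a41, Slc25a21 and Slc25a54. Called higher in replicate 2 were 3 of 42 carriers, beside 8.47% of all 16145 genes tested. Called lower were 0, beside 3.35%, although 13 carriers were lower in replicate 2 at an unadjusted p under 0.05 by this test without the fold limit and 18 were higher. The share called was near that of all genes. This test compares these libraries, not conditions, and covers counting error only.

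Slc25a37 had 5383 counts in replicate 2, against 1575 in replicate 1, a TMM-scaled ratio of 2.91 (exact 95% interval 2.75 to 3.08). Its main coding transcript, of 4174 bases, had 4761 counts in replicate 2 and 930 in replicate 1, while its retained-intron transcript, of 5927 bases, had 578 and 637. Of the erythroid markers 7 of 7 were called higher in replicate 2 as well, none was at 0 in either library, and Alas2, the heme synthesis enzyme of red cell precursors, had 26062 counts in replicate 2 and 2116 in replicate 1. Their part in the level of Slc25a37 was not tested. Slc25a28, the other mitoferrin, had 1436 counts in replicate 2, against 856 in replicate 1, for a log2 ratio of 0.52 that did not reach the fold limit.

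Slc25a1 had 3330 counts in replicate 2, against 1019 in replicate 1, for a ratio of 2.78 (exact 95% interval 2.59 to 2.99, adjusted p = 6.86e-207, exact binomial test). Of the 7 adipocyte markers 4 were called higher in replicate 2, namely Adipoq, Plin1, Cidec and Ucp1, and none was at 0, while Fabp4, Lep and Cidea were not called. Adipoq, the fat cell hormone adiponectin, had 2003 counts in replicate 2 and 625 in replicate 1. The 6 lung epithelium markers were also all called higher, and Sftpb, Sftpa1 and Scgb3a2 among them were at 0 counts in replicate 1. The part of these tissues in the level of Slc25a1 was not tested.

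Slc25a31 had 25 counts in replicate 2, against 7 in replicate 1, for a ratio of 3.04 (exact 95% interval 1.28 to 8.33, adjusted p = 0.0138, exact binomial test). All 3 calls rest on counting error alone. With a spread common to all genes, estimated by edgeR from the difference between these same libraries as a biological coefficient of variation of 0.276, none was called. By edgeR's exact test the adjusted p was then 0.205 for Slc25a37, 0.252 for Slc25a1 and 0.839 for Slc25a31, and 2 carriers had an unadjusted p under 0.05, both higher in replicate 2.

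The other 39 tested carriers were not called. Their log2 ratios of replicate 2 over replicate 1 ran between -0.82 for Slc25a40 and 0.77 for Slc25a10. Over all 42 the median was 0.08, beside 0.01 for all genes tested, with 24 carriers above 0 and 18 below. The log2 ratio followed GC content, with a Spearman rho of 0.572 over the 42 carriers and 0.563 over 16048 genes, a description over genes that share the same 2 libraries. The GC content of the carriers ran between 39.4% in Slc25a40 and 60.6% in Slc25a10, the same genes that had the lowest and the highest ratio among those not called. After removal of the GC trend the median was 0.03, beside 0.02 for all genes, and the same 3 carriers were called, beside 7.31% of genes called higher and 2.01% called lower. Slc25a37 then had a log2 ratio of 1.70 and Slc25a1 one of 1.03, close to the fold limit.

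**Figure D4:**
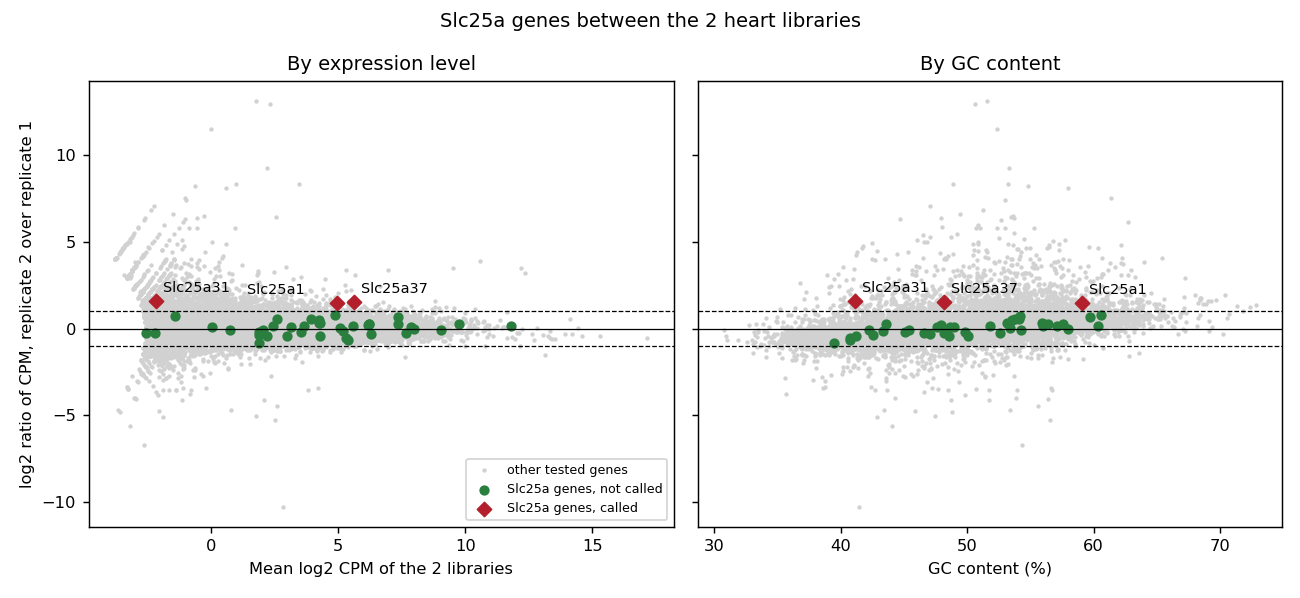
log2 ratio of CPM, or counts scaled to library size, replicate 2 over replicate 1, against mean log2 CPM (left) and against GC content of the longest annotated transcript (right), for the 42 tested carriers and for other tested genes with counts in both libraries. Dashed lines mark a fold of 2. Slc25a37, Slc25a1 and Slc25a31 lie above the upper line, and the remaining 39 carriers lie between the lines and rise with GC content.

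The X-linked carriers Slc25a5, Slc25a14, Slc25a43 and Slc25a53 were measured in libraries that differ in Xist, and none was called. Their log2 ratios of replicate 2 over replicate 1 were 0.08, 0.08, -0.23 and -0.09. Of 16 other genes of mitochondrial transport, Ucp1 and Ucp2 were called higher in replicate 2, 0 were called lower and 14 were not called. Over all 16145 genes tested, 8.47% were called higher and 3.35% lower, so these few calls set the group apart in neither direction. Ucp1 had 11827 counts in replicate 2, against 4527 in replicate 1, for a ratio of 2.23, and is itself one of the adipocyte markers. Ucp2 had 13980 counts in replicate 2, against 5374 in replicate 1, for a ratio of 2.22, and was not called after GC correction. The genes of the malate-aspartate shuttle, of the pyruvate carrier and of the outer membrane channels were all among the 14 not called. Not called does not mean equal. Their log2 ratios of replicate 2 over replicate 1 ran between -0.62 for Vdac3 and 0.32 for Mdh2, with Mdh1 at -0.48.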

How the data were processed

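The 2 libraries of poly(A)-selected heart RNA form 1 group, and the labels give the group and the replicate numbers. The authors deposited gene and transcript tables on mm10 with GENCODE M4, per the notes beside the tables. The aligner and quantification tool were not given in the sources used here. Deposited expected counts are estimated fragments, not whole because shared fragments are divided, per the file headers. Deposited TPM divides these counts by effective length and is scaled to one sum, per the file headers, and deposited FPKM, used as an alternative, also scales by depth. The authors deposited the percent of each gene held by a transcript, and a posterior SD of the count used here as a score of uncertainty, per the file headers. A deposited posterior mean TPM was used as another alternative. Other deposited columns are lengths and TPM bounds. Lists on mm9 were not used.

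Symbols, positions, biotypes, exons and transcript sequences came from GENCODE M21 (GRCm38), to which 42462 genes (98.0%) matched by identifier. Single values of some genes are not reported here. Spike-in and other entries that name no gene, 1.65% of counts in replicate 1 and 1.72% in replicate 2, stayed out of tests. Expected counts were rounded for tests. TMM sizes and the common dispersion (15183 genes) came from edgeR 4.0.16 in R 4.3.3, and other size factors from DESeq2 1.42.0. A quasi-likelihood test needs residual degrees of freedom, which 2 libraries of 1 group do not give, so an exact binomial test in scipy 1.17.1 was used. The GC trend was a lowess fit of span 0.3 (statsmodels 0.14.6) on genes with at least 1 CPM in both libraries. Sequences were aligned with Biopython 1.88, and figures drawn with matplotlib 3.10.9. Intervals and floors (3 counts) and p-values of the binomial test cover counting error only. The edgeR fit alone includes a spread, which is that between these samples and may be technical.

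The members, pairs, lists and tests were chosen with earlier results of these data known. Named with values were genes of the pairs, Slc25a1, Slc25a3, Slc25a46, the 10 highest members, members called between libraries, members at 0 counts in both, and the other transport genes. The remaining members with values reported here were named to account for them, and transcripts of Slc25a12 and Slc25a37 after their values were seen.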

Additional observations from a re-analysis of the deposited data

How the results depend on the processing

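The carriers' share of TPM (0.420%) was 0.704% over nuclear genes and 0.664% of counts, and with either library alone 0.365% to 0.475%. The log2 ratio of Slc25a4 over Slc25a5 (3.42) was 3.92 from counts without division by length, 2.68 from coding transcripts alone, and 3.32 to 3.53 with either library alone. The exon 3A share of Slc25a3 (90.2%) was 86.9% by counts, 95.2% among transcripts with exon 3A or 3B, and 90.1% to 90.4% with either library alone. With no fold limit 18 carriers were higher and 13 lower in replicate 2, with a fold of 1.5 there were 5 and 2, and with the common dispersion 0 higher. Of the 16 other transport genes, 9 were higher and 5 lower with no fold limit, 1 was lower with a fold of 1.5, and 1 was higher with GC correction and 0 with the common dispersion. Over all genes, 1368 were higher and 541 lower, against 5558 and 5385 with no fold limit, 2557 and 1821 with a fold of 1.5, 701 and 232 with at least 100 counts, and 334 and 72 with the common dispersion. With coding transcripts alone the log2 ratio of Slc25a12 over Slc25a13 reversed to -1.27, against 1.64. By counts without division by length, Slc25a28 over Slc25a37 had -1.39, against 0.29, and Slc25a36 over Slc25a33 had 1.37, against 0.08, and 15 pairs were led by the first gene. No member called between the libraries changed direction. Scaling by total gene counts moved the median log2 ratio of all genes to 0.11, against 0.01, and with it and the other size factors tried the same 3 carriers were called. Without a minimum count Slc25a18 was called as well. With at least 100 counts Slc25a31 was left out, and only Slc25a37 and Slc25a1 were called. Among pairs outside the adenine nucleotide carriers, the 8 that moved by more than their spread with a pseudocount of 1 all hold a gene under 3 TPM. Members at a TPM of at least 1 numbered 35 in both libraries and 36 with either library alone, and the first gene of a pair led in 14 pairs, 13 with coding transcripts alone, and 14 to 16 with either library alone. No paired analysis was possible because there is 1 group. Leaving out a library leaves no difference between libraries to test, so those results have no such value. Depth limits what can be said of Slc25a2, Slc25a18, Slc25a21, Slc25a31, Slc25a41, Slc25a43 and Slc25a54.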
